A study of Mus musculus with 12 samples.

Results

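Fas, Mlkl, Tnfrsf1b, Cd40 and Xaf1 are 5 genes of cell death and of the TNF receptor superfamily, measured by poly(A) RNA-seq in cell aggregates that derive from 129w2, a line of mouse embryonic stem cells. They are 5 of the 1113 genes that the authors listed in either of their tables. They were chosen by the authors' FDR and log2 fold change between aggregates with and without a cocktail of factors: they stand among the 633 genes listed as changed, all 5 as up. Of the 546 genes listed for a second experiment, a co-culture, Fas is the 1 member. Since the cocktail values chose the genes, their change with the cocktail is given here as a description, without a test.

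The study aimed at salivary gland progenitors. All aggregates began with 3000 cells per well and received BMP4 (2 ng/ml) on day 3, then basic FGF (25 ng/ml) with retinoic acid (1 µM) on day 4, and moved to new plates on day 5. The 4 groups held 3 libraries each: aggregates kept with mSMGs (an abbreviation not spelled out in the labels) between days 5 and 7, their day 7 controls, aggregates cultured with the cocktail, and another set of day 7 controls. For the cocktail libraries the labels give neither the composition nor the day of collection, so stage and cocktail cannot be told apart. All aggregates come from 1 line. Nothing in the labels says whether replicates were separate cultures, so the spread between libraries may be technical. In bulk RNA, more cells of a type and more RNA per cell cannot be told apart.

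Receptors of the TNF superfamily carry signals across the plasma membrane through adaptors. A receptor with an intracellular death domain, such as Fas, recruits FADD and caspase-8 and can start apoptosis. When caspase-8 is blocked, the kinases RIPK1 and RIPK3 can instead activate the pseudokinase MLKL, which permeabilizes the plasma membrane (necroptosis). Receptors without a death domain, such as TNFR2 (Tnfrsf1b) and CD40, bind TRAF adaptors and activate NF-kappaB. XAF1 binds and antagonizes the caspase inhibitor XIAP and is induced by interferon. Fas alone among the 5 proteins carries the death domain in the annotation deposited with the table. Tnfrsf1b and Cd40 are annotated there with the cysteine-rich region of the receptor family, so "death receptor" applies to Fas but not to these. That annotation places Fas, Mlkl and Tnfrsf1b among 26 listed genes of TNF signaling, Fas and Mlkl among 10 of necroptosis, Fas among 6 of apoptosis and Cd40 among 9 of NF-kappaB signaling.

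Promoter windows of 300 bases (250 before to 50 after the annotated start, RefSeq, GRCm38.p6) were found for 4 of the 5 genes. They are printed here for 3 genes: for Fas and Tnfrsf1b because they held motif matches, and for Xaf1, which changed most, because it held none. Capitals mark matches to GAS (TTCNNNGAA, the gamma-activated site of interferon responses) or to the ISRE core (GAAANNGAA, the interferon-stimulated response element, bound by interferon regulatory factors), searched on both strands.
Fas, chr19:34290409-34290708, plus strand: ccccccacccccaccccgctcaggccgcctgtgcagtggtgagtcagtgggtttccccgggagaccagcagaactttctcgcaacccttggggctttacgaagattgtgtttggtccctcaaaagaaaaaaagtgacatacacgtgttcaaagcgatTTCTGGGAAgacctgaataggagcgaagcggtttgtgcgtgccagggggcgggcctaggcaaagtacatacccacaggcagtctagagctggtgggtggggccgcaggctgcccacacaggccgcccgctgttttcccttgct
Tnfrsf1b, chr4:145246821-145247120, minus strand: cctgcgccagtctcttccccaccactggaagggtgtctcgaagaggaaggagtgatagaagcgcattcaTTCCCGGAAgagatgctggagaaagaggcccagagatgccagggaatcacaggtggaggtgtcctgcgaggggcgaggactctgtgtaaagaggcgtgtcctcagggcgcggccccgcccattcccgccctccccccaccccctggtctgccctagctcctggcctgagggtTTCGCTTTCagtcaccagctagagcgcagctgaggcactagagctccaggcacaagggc
Xaf1, chr11:72301379-72301678, plus strand: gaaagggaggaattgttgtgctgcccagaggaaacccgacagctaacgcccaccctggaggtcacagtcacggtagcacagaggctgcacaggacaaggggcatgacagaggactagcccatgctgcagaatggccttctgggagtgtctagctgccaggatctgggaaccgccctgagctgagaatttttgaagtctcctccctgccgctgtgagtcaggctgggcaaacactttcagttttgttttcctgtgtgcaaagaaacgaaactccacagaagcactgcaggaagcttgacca
The Fas window held 1 GAS match, from -93 to -85 bases of the start. Tnfrsf1b held a GAS match from -181 to -173 and an ISRE core match from -9 to -1, next to the start. The windows of Xaf1 and Mlkl held neither motif, and none of the 4 windows held a further motif, an NF-kappaB form (GGANNTTCC). These matches do not overlap each other. Over 32851 promoter windows of the same length, 8.3% held GAS, 8.56% the ISRE core and 4.26% the NF-kappaB form. Among windows of genes listed as up with the cocktail, 13.2% of 295 held GAS, 22.0% the ISRE core and 8.47% the NF-kappaB form. Among windows of genes listed as down, the shares were 5.14%, 7.91% and 3.16% of 253. A match is a string of letters and not a shown binding site, and a missing match concerns this window only.

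**Figure D1:**
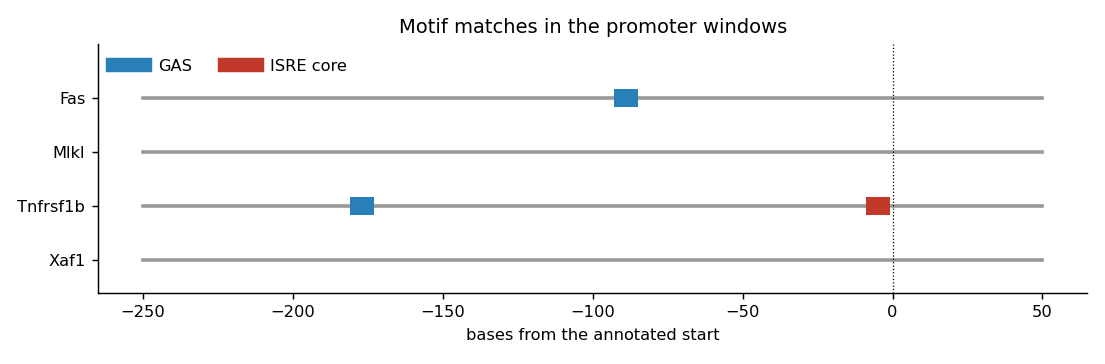
Positions of GAS (blue) and ISRE core (red) matches in the promoter windows of 4 genes, in bases from the annotated start (dotted line). Fas has 1 match and Tnfrsf1b has 2, of which 1 ends at -1; Mlkl and Xaf1 have none.

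Levels are given in FPKM, which counts fragments relative to transcript length and to the size of the library. The count columns deposited beside the cocktail FPKM were not used here, so no counting error is given, and a level of 0 may be a failed estimate. Libraries of the cocktail experiment carry the numbers of the table columns, which do not pair controls with cocktail libraries.

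All 5 genes were higher in every cocktail library than in every control. Xaf1 went from the lowest level of the 5 to the highest. The mean of Fas was 5.47 times, of Tnfrsf1b 5.59 times, of Mlkl 5.82 times and of Cd40 2.83 times that of the controls. The whole table was selected for change: limma on log2(FPKM + 1) called 100% of the 530 genes tested at an adjusted p under 0.05, 59.2% as higher and 40.8% as lower. All 5 members entered this test only through their cocktail libraries, since a mean of 1 FPKM in a group was asked for and all their control means lay below it. The count of 5 of 5 therefore carries no evidence of its own.

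Fas (chromosome 19, 34290666 to 34327772, plus strand, GRCm38) encodes the receptor of Fas ligand. Its control levels were 0.284, 0.419 and 0.421 FPKM, and the cocktail levels were 1.96, 2.70 and 1.48 FPKM. The cocktail libraries spread widely, yet the lowest was 3.53 times the highest control. The group means were 0.375 ± 0.0784 and 2.05 ± 0.612 FPKM (SD, n = 3), and the difference in log2(FPKM + 1) was 1.13 (limma, SE 0.15). The pseudocount of 1 understates changes at such low levels, and with 0.1 the difference was 2.15. The authors' deposited table gives a log2 fold change of 2.42.

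Tnfrsf1b (chromosome 4, 145213463 to 145246870, minus strand) encodes the TNF receptor that lacks a death domain. Its levels were 0.710, 0.794 and 0.923 FPKM in the controls and 4.04, 4.55 and 4.99 FPKM with the cocktail. Of the 3 receptors it had the highest level in both groups and the closest replicates. Its means were 0.809 ± 0.107 and 4.52 ± 0.477 FPKM (SD, n = 3), with a difference of 1.61 in log2(FPKM + 1) (SE 0.11).

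Cd40 (chromosome 2, 165055627 to 165072948, plus strand) encodes the co-stimulatory receptor of B cells and other antigen-presenting cells. Its control levels were 0.314, 0.516 and 0.428 FPKM, and its cocktail levels were 1.16, 1.43 and 0.965 FPKM. Its ratio of means, 2.83, was the smallest of the 5, and its lowest cocktail library was 1.87 times its highest control. The authors' deposited table gives it a log2 fold change of 1.39 with an FDR of 0.000133, of the 5 the nearest to the limits of that list. Every gene listed there has an FDR of at most 0.0099 and a log2 fold change of at least 1.002 in size, and 261 of the 363 up genes have a larger log2 fold change than Cd40. The difference in log2(FPKM + 1) was 0.62 (SE 0.11). In the count columns, which were not used here, library 2 has the lowest Cd40 count of the 3 cocktail libraries and not the highest. These counts were not set against library depth, so whether they bear on its FPKM of 1.43 was not tested. The order of the 3 cocktail libraries and the ratio of means are left uncertain.

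Mlkl (chromosome 8, 111311797 to 111338177, minus strand) encodes the executioner of necroptosis. Its levels were 0.246, 0.145 and 0.128 FPKM in the controls and 0.854, 0.893 and 1.27 FPKM with the cocktail. It was the lowest of the 5 with the cocktail, and its lowest cocktail library was 3.48 times its highest control. The means were 0.173 ± 0.0636 and 1.01 ± 0.230 FPKM (SD, n = 3), and the difference in log2(FPKM + 1) was 0.77 (SE 0.10). Its mean of 1.01 FPKM lay barely above the minimum of 1 asked for by the test.

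Xaf1 (chromosome 11, 72301629 to 72313733, plus strand), the antagonist of XIAP, had control levels of 0.0590, 0 and 0.113 FPKM. With the cocktail it reached 12.9, 12.5 and 13.1 FPKM. The 3 cocktail libraries lay close together, with a standard deviation of 2.37% of their mean. The lowest of them was 110.7 times the highest control. The difference in log2(FPKM + 1) was 3.71 (SE 0.10), and it was 6.43 with a pseudocount of 0.1, since a control of 0 makes this value depend on the pseudocount. Of the 363 genes listed as up, 42 have a larger log2 fold change than Xaf1 in the authors' deposited table.

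**Figure D2:**
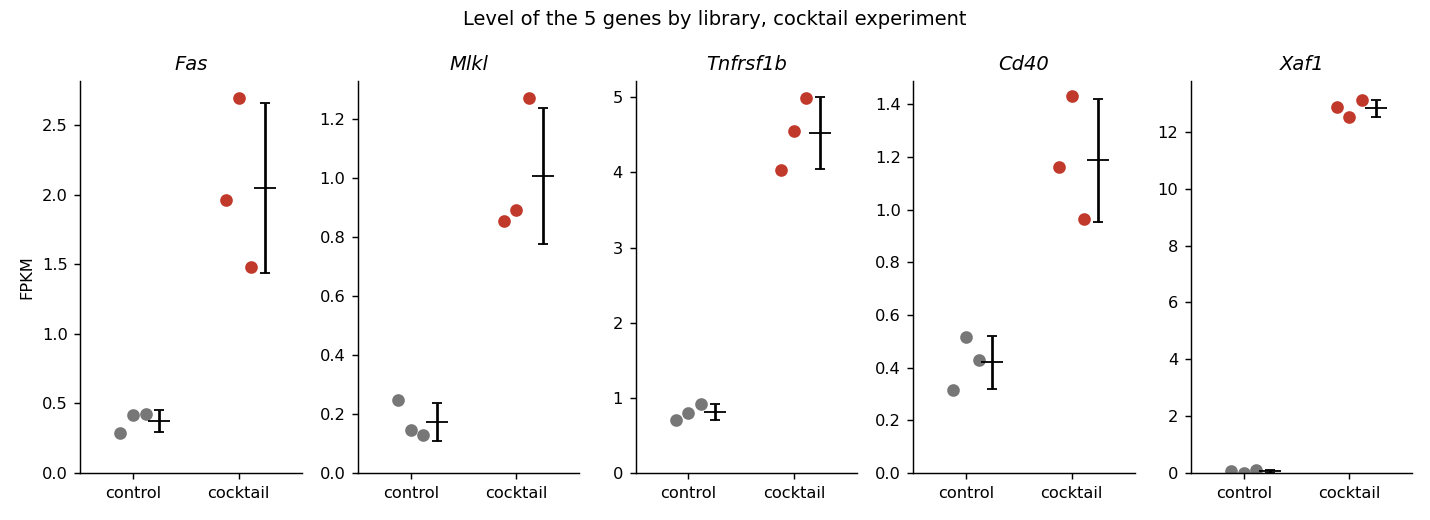
FPKM of the 5 genes in each control (grey) and cocktail (red) library, with the mean and SD of 3 libraries beside the points; each panel has its own linear axis from 0. In every panel the cocktail libraries lie above all controls, by the smallest margin for Cd40.

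The order of the levels (FPKM, which is per length) differed between the groups. In the controls it ran from Tnfrsf1b through Cd40, Fas and Mlkl to Xaf1, and the libraries of Cd40 and Fas overlapped. With the cocktail, Xaf1 came first, then Tnfrsf1b, Fas, Cd40 and Mlkl, and the libraries of Cd40 and Mlkl overlapped. All other neighbours in both orders had no overlapping libraries.

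The genes most like each member over the 6 cocktail libraries were found by Euclidean distance on log2(FPKM + 1). For Fas they were Tmco4 (distance 0.38), Cd74 (0.46), the invariant chain of class II molecules, and Tgm1 (0.50). Cd74 had means of 0.445 ± 0.0417 FPKM in the controls and 2.19 ± 0.645 FPKM with the cocktail (SD, n = 3). For Tnfrsf1b they were Prkcq (0.33), a protein kinase C of T cell signalling, Tnfaip2 (0.49) and the RNA sensor gene Ddx58 (0.58). For Cd40 they were Trim14 (0.30), Vxn (0.33) and Wnt8b (0.34). For Mlkl they were Trim34a (0.32), the complement protease C1ra (0.35) and Acta2 (0.37). For Xaf1 they were the interferon-induced genes Oasl2 (0.27), Rtp4 (0.28) and Isg15 (0.29). Isg15 was listed at 0 in all controls.

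Other genes of these pathways were taken from 9 lists with 167 genes, of which 24 stand in the cocktail table (22 of them tested) and 17 in the co-culture table. A gene is in the cocktail table only because the authors called it changed, so calls of listed genes repeat that choice. Of 28 TNF receptor superfamily genes, 4 are listed. Beside Fas, Tnfrsf1b and Cd40 this is Tnfrsf14, the receptor of LIGHT and partner of BTLA, which rose. Its control levels were 0.0666, 0.107 and 0 FPKM, and with the cocktail it stood at 1.62, 2.08 and 1.65 FPKM. The difference in log2(FPKM + 1) was 1.39 (limma, SE 0.10). Like the members, Tnfrsf14 entered the test only through its cocktail libraries, so its call carries no evidence of its own. Of 18 ligands, Eda, the ligand of the ectodysplasin receptor, is the 1 listed. It rose from 2.23 ± 0.331 to 5.28 ± 0.889 FPKM (SD, n = 3). The ligands of the members (Fasl, Tnf, Lta and Cd40lg) had no row in the tables used here, and nothing is said of their level.

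Of 23 adaptors and regulators below the receptors, Tnfaip3 is in the cocktail table, and it fell. Tnfaip3 (A20), the deubiquitinase that restrains NF-kappaB and death signalling, went from 2.62 ± 0.164 to 1.25 ± 0.205 FPKM (SD, n = 3), a difference of -0.69 in log2(FPKM + 1) (limma, SE 0.11, adjusted p = 0.00023). It ran opposite to Icam1, Vcam1, Cxcl10 and Tnfaip2, the 4 listed genes among 14 of NF-kappaB feedback and targets, which all rose. Fadd, Casp8, Ripk1 and the Traf genes had no row.

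Among 17 necroptosis and pyroptosis genes, 3 are in the cocktail table. Beside Mlkl these are Zbp1 and Il18, and both rose. Zbp1, the sensor of Z-form nucleic acids that can engage RIPK3, was listed at 0 in all 3 controls. With the cocktail it reached 15.6, 20.97 and 17.1 FPKM, the highest levels of this list. Il18, the cytokine released in pyroptosis, rose from 0.696 ± 0.343 to 2.67 ± 0.950 FPKM (SD, n = 3). Ripk3, the kinase directly upstream of Mlkl, had no row. Of 17 caspase and IAP genes in the list, Xaf1 is the 1 given here. None of 20 BCL2 family genes stands in the cocktail table or in the co-culture table.

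Of 17 genes of interferon signalling and its transcription factors, 10 are listed, and the 8 tested all rose. Their median difference was 2.83 in log2(FPKM + 1), against 0.785 over all genes tested. The latter mixes 314 higher and 216 lower genes, so the medians do not compare like with like. Ciita and Irf7, too low for the test, are listed as up. Irf1, a transcription factor induced by interferon, went from 3.62 ± 0.509 to 145.5 ± 2.81 FPKM (SD, n = 3). Markers of leukocytes and antigen-presenting cells, which could carry Cd40, Fas and Tnfrsf1b, had no row in either table (0 of 14). Outside that list, genes of antigen presentation and macrophages stood in the cocktail table, and 3 were picked after their values were seen. Cd74 reached 1.53, 2.82 and 2.20 FPKM from 0.417, 0.426 and 0.493 FPKM. H2-Eb1, a class II chain, reached 4.00, 5.48 and 2.21 FPKM from 0.384, 0.432 and 0.263 FPKM. Mpeg1, a macrophage gene, reached 2.56, 2.90 and 2.94 FPKM from 0.409, 0.545 and 0.629 FPKM. All 3 were thus higher in every cocktail library than in every control, and their part in the rise of the 5 genes was not tested. Of the other marker lists, Kdr (endothelial, 1 of 7), Lhx2 (neuroectoderm, 1 of 7), Tfap2c (surface ectoderm, 1 of 11) and Pdgfra and Twist1 (mesenchyme, where 3 of 7 are listed and Col3a1 was too low for the test) fell, and Acta2 (salivary epithelium, 1 of 8) rose. Of 6 pluripotency markers none had a row in either table. The summed mesenchyme markers were at 21.2 to 24.2 FPKM in the controls and 5.95 to 7.34 FPKM with the cocktail. Twist1 made up most of this sum, with means of 21.4 FPKM in the controls and 6.16 FPKM with the cocktail. The part of the mesenchyme markers in the rise of the 5 genes was not tested.

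**Figure D3:**
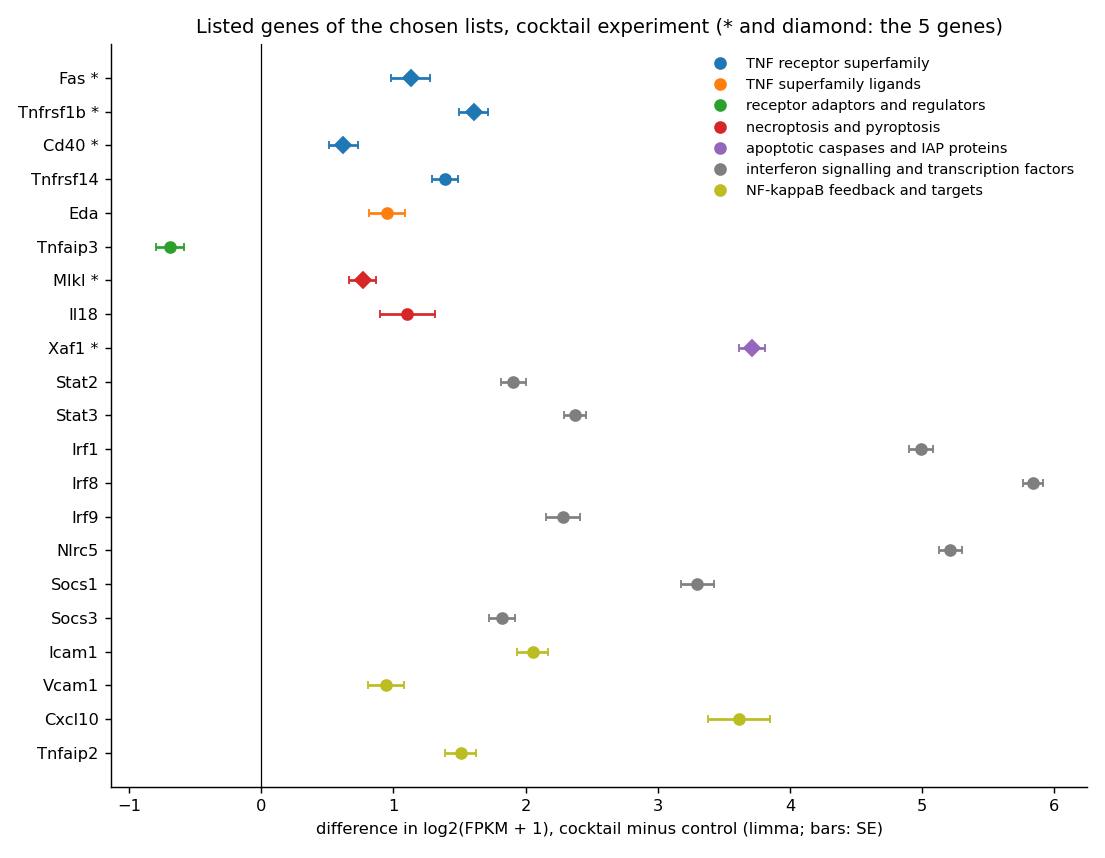
Difference in log2(FPKM + 1) between cocktail and control (limma, bars are SE) of genes of the chosen lists that stand in the cocktail table and were tested; diamonds and asterisks mark the 5 members. Zbp1, at 0 in all controls, is left out. Tnfaip3 is the 1 gene with a negative difference, and Cd40 has the smallest of the 5 members (0.62).

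Fas is also in the table of the co-culture experiment, normalized separately. Its unit is not named and was inferred to be FPKM. The levels of Fas were 0.307, 0.226 and 0.0742 in controls 1, 2 and 3, and 2.22, 4.30 and 0.446 in the co-culture libraries. Every co-culture library was above every control, and replicate 3 was far below replicates 1 and 2. The means were 0.202 ± 0.118 and 2.32 ± 1.93 (SD, n = 3). By replicate number, Fas was 7.24, 19.0 and 6.01 times its control.

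Of the 546 co-culture genes listed, 390 were at least doubled in both replicates 1 and 2. A further 109 were at most at 0.5 times their control in both. The choice of genes thus appears to rest on these replicates, a rule inferred from the values, so these 2 ratios of Fas describe it. Replicate 3 was not part of such a rule, as far as the values show. There the ratio of Fas, 6.01, was among the 25 highest of the 390 genes at least doubled in replicates 1 and 2, whose median was 1.44 and of which 79.7% were higher in replicate 3. It rests on a control level of 0.0742 at unknown depth, and on the log2(value + 1) scale the difference in replicate 3 was 0.43, against 1.30 and 2.11 in replicates 1 and 2. Across the tested genes, co-culture replicate 3 correlated at 0.96 with control 3, at 0.835 with co-culture replicate 1 and at 0.685 with co-culture replicate 2. Co-culture replicate 2 was the least like the controls, at 0.609 to 0.655. Most listed genes were at least doubled, or at most at 0.5 times their control, in replicates 1 and 2. These correlations can follow in part from that apparent choice of genes. The log2(value + 1) change of Fas was 1.28 over all libraries, 1.79 without co-culture replicate 3 and 0.85 without co-culture replicate 2.

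Of the 1113 genes listed in either table, only 66 stand in both, so little sharing holds for the tables as a whole. Other TNF receptor genes in the co-culture table were different ones from those in the cocktail table. Beside Fas these were Tnfrsf10b (the TRAIL receptor, with a death domain), Tnfrsf11b (osteoprotegerin), Tnfrsf12a (the TWEAK receptor) and Tnfrsf23 (a decoy receptor for TRAIL). All 5 were higher than their control in replicate 3, by 1.74 to 6.01 times, as were most of the doubled genes. Tnfrsf10b had levels of 6.28, 4.97 and 2.49 in the controls, and 13.4, 31.7 and 4.34 after co-culture, so its co-culture replicate 3 lay within the range of the controls. Without pairing, limma called 0 of the 425 genes tested at an adjusted p under 0.05 (0%), and 86 genes, or 20.2%, had an unadjusted p below that value. Blocking on the replicate number raised the share called to 9.18% (8.94% higher). Of the 4 other receptors Tnfrsf12a then passed (difference 2.02 in log2(value + 1), SE 0.58, adjusted p = 0.0188, against 0.209 without the block). The call of Fas moved with the block as well, from an adjusted p of 0.209 to 0.0423 (limma, SE 0.43). Fas entered this test only through its co-culture libraries, since its control mean of 0.202 lay below the minimum of 1. Its call therefore carries no evidence of its own. The genes appear to have been listed for their change in replicates 1 and 2, a rule inferred from the values. These p-values then reuse the values that chose the genes, can be too small, and support nothing independently.

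Fas also belongs to the targets of p53. Of 19 such genes, 7 are in the co-culture table: Fas, Tnfrsf10b, Perp, Trp53inp1, Cdkn1a, Phlda3 and Plk2. All 7 were at least doubled in replicates 1 and 2, which repeats the apparent choice of the table. They were also higher in replicate 3 by 1.74 to 6.01 times, where 79.7% of all doubled genes were higher too. Fas had the highest ratio in replicate 3, followed by Phlda3 (4.05) and Perp (4.03). Without the block none of the 7 passed. In the blocked fit, where 9.18% of all genes tested were called, Perp (2.19, SE 0.57, adjusted p = 0.0115) and Trp53inp1 (1.77, SE 0.58, adjusted p = 0.0396) passed, and the differences of Cdkn1a, Phlda3, Plk2 and Tnfrsf10b (1.24, 1.46, 1.54 and 1.35) did not pass (limma, adjusted p from 0.0691 to 0.0959). In the cocktail table Fas is the 1 gene of this list.

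**Figure D4:**
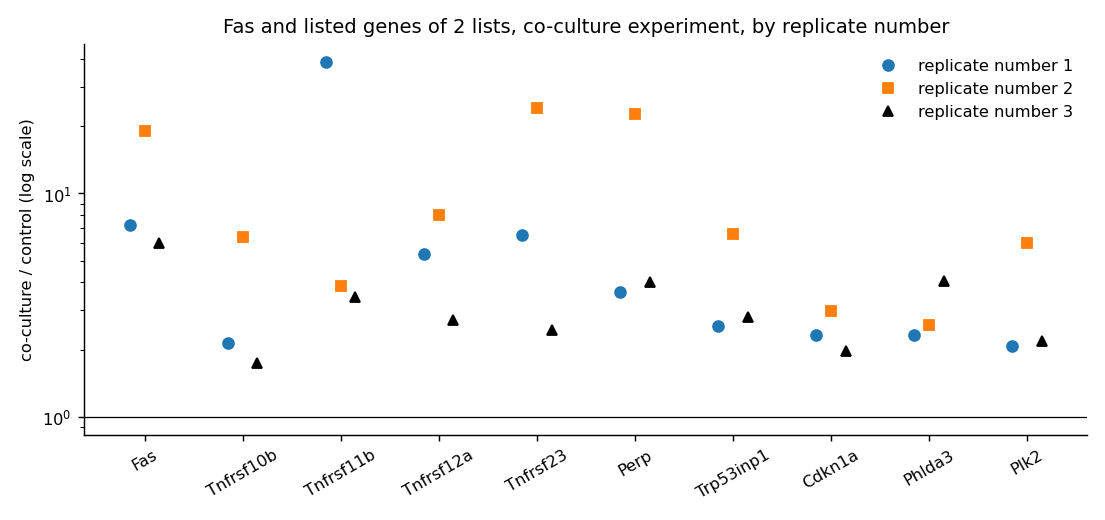
Ratio of co-culture to control (log axis) for Fas and the listed TNF receptor and p53 target genes, by replicate number (circle 1, square 2, triangle 3). All ratios lie above 1, and in replicate 3 Fas is the highest (6.01) and Tnfrsf10b the lowest (1.74).

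Marker genes of several cell types also differed between the co-culture libraries. The 3 listed endothelial markers of 7 (Kdr, Tek and Flt1) summed to 0.792 to 3.89 in the controls and to 10.2, 42.1 and 1.65 with co-culture. The 2 listed neuroectoderm markers of 7 (Fabp7 and Hes5) summed to 154.6, 273.6 and 181.5 in the controls and to 49.8, 25.8 and 269.2. The 3 listed salivary markers of 8 (Sox10, Krt19 and Acta2) did not move together. Krt19 was 3.90, 24.2 and 1.80 times its control in replicates 1, 2 and 3, and Sox10 was 2.49, 0.0583 and 1.37 times. Acta2 went from 0.142 and 0.354 to 0.597 and 25.1 in replicates 1 and 2, and was listed at 0 in both libraries numbered 3. Their sum was 7.82 to 11.7 in the controls and 29.7, 179.6 and 13.4 after co-culture, of which Krt19 made up 154.3 in replicate 2. The 1 listed mesenchyme marker of 7, Col3a1, had levels of 0.195, 0.302 and 0.0782 in the controls, and 1.10, 1.49 and 0.0298 after co-culture. Fas, the endothelial sum and Krt19 were highest in co-culture replicate 2 and lowest in replicate 3. Tnfrsf10b, Tnfrsf12a, Perp, Cdkn1a and Col3a1 had the same order, but Tnfrsf11b and Phlda3 did not. This order is thus not particular to Fas and the markers of these cell types. No marker of the leukocyte and antigen-presenting list had a row in the co-culture table. Outside that list, Inpp5d, Lyn and Cd80, which leukocytes express among other cells, did have rows. The part of any of these cell types, or of RNA from the mSMGs, in the level of Fas was not tested.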

How the data were processed

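HISAT2 and GRCm38 are named in the submitters' processing notes; no quantifier, annotation or test is stated there. Per the file headers, the authors deposited FPKM for 633 cocktail genes with their adjusted p-value (FDR) and log2 fold change. The co-culture table holds 546 genes in a unit inferred to be FPKM, which the authors' header does not name. A further 6 columns, named by numbers alone, and 1 fragment of a broken line were not used. The 6 count columns of the cocktail table were not used either: their names give the group but no single sample, and 1 measure per group was kept. A count-based test planned at first was therefore replaced by limma on FPKM, after its result had been seen. The members and lists were chosen with earlier results of these data known, and some genes were left out of the lists and are not reported here.

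Both tables were tested with limma 3.58.1 (R 4.3.3, trended prior) on log2 of the value plus 1, Benjamini-Hochberg adjusted, where a group mean reached 1. Alternatives were a pseudocount of 0.1, no filter and each library left out, and for co-culture also the block and quantile normalization. The fits were also run on simulated data in which most genes were unchanged. The cocktail genes were selected for change, and the co-culture genes appear to be, so that run does not cover the effect of the selection. Deviations from group means correlated at 0.606, 0.143 and 0.256 between same-numbered co-culture and control libraries. Between libraries of different number the correlations were -0.349 to 0.0419. The numbers were used as pairs for the ratios and in the replicate block, and the main fit used no pairing. These correlations depend on each other, because the deviations of a group add up to 0. Symbols and positions are from GENCODE M21, which matched 594 of 633 and 546 of 546 identifiers. Named genes were the members, genes of the lists and the 3 nearest in pattern to each member. Added after their values were seen were 3 antigen-presentation and macrophage genes, and Inpp5d, Lyn and Cd80 for co-culture.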

Additional observations from a re-analysis of the deposited data

How the results depend on the processing

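All 5 members kept a positive difference with the cocktail under the alternatives run, wherever they had a value. A pseudocount of 0.1 raised it to 2.15 for Fas, 2.35 for Tnfrsf1b, 1.31 for Cd40, 2.02 for Mlkl and 6.43 for Xaf1, and the median of all genes from 0.785 to 1.13. Without cocktail replicate 2, Fas was at 0.98. Mlkl fell under the minimum level without cocktail replicate 3. Of all cocktail genes 530 were called, 526 to 532 with 1 library left out and 633 without a filter; of the genes of the lists, 22, 21 to 22 and 24. The planned edgeR and DESeq2 alternatives are not reported, since the count columns were not used. In co-culture, 0 genes were called without pairing, 39 with the replicate block, 0 to 330 with 1 library left out (330 without co-culture replicate 3, 1 without control 1) and 2 without both libraries numbered 3; the cause was not tested. Fas stayed higher with co-culture in each of these, at 0.79 with quantile normalization and at 2.64 with a pseudocount of 0.1. Without counts, the precision of the low control levels of Xaf1, Mlkl and Fas is not known.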

Other observations

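Of the genes of the pathway lists, 5 stand in both tables, beside 66 of all 1113 genes listed in either. Fas, Stat3 and Socs1 have a positive difference in both, and Eda and Il18 have opposite signs. In co-culture neither Eda (limma, adjusted p = 0.254, 0.278 with the replicate block) nor Il18 (0.209 and 0.164) passed. In the cocktail experiment Eda had levels of 2.59, 2.17 and 1.93 FPKM in the controls, and 4.26, 5.70 and 5.89 FPKM with the cocktail. In the co-culture experiment its levels were 2.44, 2.37 and 1.85 in the controls, and 0.967, 0.861 and 1.65 after co-culture. Il18 had levels of 0.858, 0.302 and 0.927 FPKM in the cocktail controls, and 2.05, 3.76 and 2.19 FPKM with the cocktail. Its co-culture controls had 1.69, 2.08 and 1.35, and the co-culture libraries 0.382, 0.306 and 1.28. Co-culture replicate 3 was below control 3 for both genes, by less than replicates 1 and 2 were below theirs. The tables were normalized separately, and the difference between the experiments was not tested.

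Gsdmd, which encodes the pore-forming protein of pyroptosis, is in the co-culture table and was too low for the test there. Its levels were 0.541, 1.06 and 0.0912 in the controls, and 0.104, 0 and 0.398 after co-culture, so replicate 3 ran opposite to the other two.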
